A study of Mus musculus with 60 samples.

Results

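Benzo(a)pyrene (BaP), a polycyclic aromatic hydrocarbon of tobacco smoke and soot, was given at 1.5 µM for 24 h to Balb/c 3T3 cells, and 3 arrays of these cells were set against 3 arrays of cells kept in 0.75% DMSO for the same time. These 6 arrays were chosen by their labels out of 60 in the study. Balb/c 3T3, a cell line derived from mouse embryo, ceases to grow once the dish is full and serves to test chemicals for their power to transform cells. Cells of the BALB/c strain background were plated sparsely, at 200 per dish in 6 dishes for each treatment, and were dosed at a confluence of 60 to 65%. The study ran 2 sets of concentrations, one from the literature and one at the IC20, the concentration that inhibits by 20% as its name states, and each set had its own DMSO controls. BaP at 1.5 µM is the 24 h treatment of the IC20 set. In that set the 24 h arrays also hold 3-methylcholanthrene (MCA) at 20 µM, 2,4-diaminotoluene (DAT) at 700 µM and 2-acetylaminofluorene (AAF) at 10 µM, with 3 arrays each, all against the same 3 DMSO arrays. BaP at 0.5 µM for 24 h belongs to the literature set, with 3 arrays of its own and 3 DMSO arrays of its own. Whether the 3 arrays of a group came from separate cultures is not stated, so a p-value here covers no more than the scatter of the arrays in hand, part or all of which may be technical.

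BaP is a ligand of the aryl hydrocarbon (Ah) receptor, a transcription factor that waits in the cytoplasm with Hsp90, enters the nucleus when bound and pairs with Arnt to switch on genes that hold its response element. The genes it is best known for, Cyp1a1 and Cyp1b1, encode cytochrome P450 enzymes that oxidise BaP itself, and the diol epoxides formed in this way bind covalently to DNA. Cells meet the reactive products with Nrf2-controlled enzymes, with glutathione conjugation and, where DNA is damaged, with the p53 response.

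Each array gave 1 intensity for 45101 probe sets, and 12650 genes bright enough to test were compared. Levels are normalised intensities, differences are on the scale of log2(intensity + 16), which understates the change of dim genes, and SE is the standard error of a log2 difference in a limma fit of the 30 arrays of the IC20 set. A gene passed when its p-value, adjusted by the Benjamini-Hochberg method over the 12650 genes, was under 0.05. Median intensities of the 30 arrays were 56.3 to 98.9 before normalisation, and BaP array 2 was the brightest of the 6, at 84.5, against 59.3 to 60.4 on the other BaP arrays and 58.8 to 65.5 on the DMSO arrays. Within groups the arrays correlated at 0.980 to 0.986. All 12 fibroblast markers, among them the collagens Col1a1 and Col3a1, were bright enough to test, and their summed intensity was 123100 to 126700 in BaP cells, against 126800 to 141200 in DMSO cells. In limma 0 of the 12 passed, with 2 at an unadjusted p under 0.05 (11.8% of all genes) and 2 falls when the replicate number was added as a block. Of 8 endothelial markers, among them Pecam1 and Cdh5, 0 were bright enough. Of 8 epithelial markers 3 were bright enough to test (Epcam, Krt8 and Krt5), without Cdh1. Of 8 macrophage markers 5 were (Cd68, Csf1r, Adgre1, Cd14 and Fcer1g), without Ptprc. Of 8 adipocyte markers 3 were (Pparg, Fabp4 and Lpl), without Adipoq. The summed intensity of the adipocyte list was 3180 to 4272 in BaP cells, against 3471 to 4663 in DMSO cells. Of 13 markers of contractile cells 8 were bright enough, with a sum of 25860 to 27190, against 25710 to 27750 in DMSO cells. In a bulk sample fewer cells that express a gene and less RNA per cell cannot be told apart.

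BaP at 1.5 µM changed the level of 299 genes, which is 2.36% of those tested. Of these, 148 rose (1.17%) and 151 fell (1.19%), and 47 changed by at least 2-fold (0.372%). Cyp1a1, Nqo1, Cpox and Tiparp led the rises that passed, and Mx2, Gtdc1, 4930556N13Rik and Rbms3 led the falls. Arrays with the same replicate number deviated together in BaP and DMSO cells, with correlations across genes of 0.214, 0.269 and 0.308. With the number as a block 1345 genes passed (10.6%), 733 higher (5.79%) and 612 lower (4.84%). The block raised calls over all genes, so a list count that grows with it is no added support for that list. Without quantile normalisation 433 passed and 63.7% of them were rises, against 49.5% of the 299, and with arrays centred on their medians 90 passed, of which 24.4% were rises. Leaving out 1 array left 129 calls without DMSO array 2, 146 and 171 without BaP arrays 1 and 2, 179 without DMSO array 1, 204 without DMSO array 3 and 218 without BaP array 3, and 94 of the 299 genes kept their call each time.

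Of 10 tested targets of the Ah receptor, 6 rose and 0 fell, with a median log2 difference of 1.03, against -0.01 over all genes tested. The 6 also rose in each fit that left out 1 array. Cyp1a1 stood at 5634, 4697 and 5569 on the BaP arrays, against 123.2, 138.1 and 155.3 on the DMSO arrays. Every BaP array was far above every DMSO array, and the difference was 5.10 ± 0.17 on the log2 scale (SE, n = 3 each), or 34.3-fold, with a limma adjusted p of 4.18e-17. Cyp1b1, already bright in untreated fibroblasts, reached 12330, 11590 and 10690, against 4381, 4401 and 4023 in DMSO cells, a rise of 2.69-fold (adjusted p = 3.99e-12). Tiparp, an ADP-ribosyltransferase that is induced by the receptor and shuts it off, was 6178, 7231 and 6405 in BaP cells, against 1942, 2139 and 2227 in DMSO cells, and rose 3.12-fold (adjusted p = 1.71e-12). Xdh, which encodes xanthine dehydrogenase and has a response element for the receptor in mice, rose 2.37-fold (adjusted p = 4.06e-07). Its BaP arrays read 6035, 5342 and 4760, against 2290, 2368 and 2094 on the DMSO arrays, with no overlap.

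**Figure D1:**
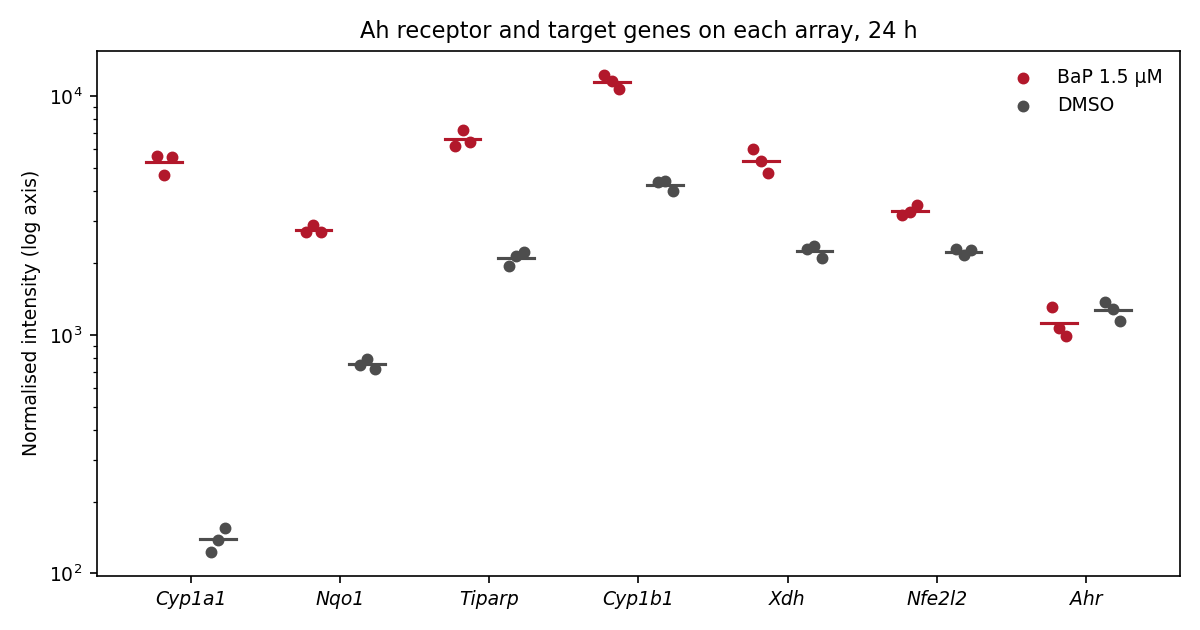
Normalised intensity (log axis) of the Ah receptor gene Ahr and of 6 targets that rose, on each of the 3 BaP arrays (red) and 3 DMSO arrays (grey), with group means as bars. For the 6 targets all BaP points lie above all DMSO points, with Cyp1a1 at 4697 to 5634 against 123.2 to 155.3, and for Ahr the points overlap.

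The receptor itself did not pass. Ahr was 1314, 1068 and 984.5 in BaP cells, against 1375, 1288 and 1138 in DMSO cells, a difference of -0.18 ± 0.115 (SE) with an interval of -0.42 to 0.06 and an adjusted p of 0.614. Arnt, its partner, differed by -0.19 (adjusted p = 0.824). Ahrr, the repressor of the receptor and one of its targets, was under the brightness limit and was not tested. It read 31.9, 12.7 and 8.92 on the BaP arrays, against 11, 2.46 and 0.936 on the DMSO arrays, and the groups overlapped. Cyp1a2, the liver member of the same P450 family, was also too dim to test. Cyp1a2 read 3.35, 4.62 and 4.15 on the BaP arrays, against 15.9, 21.5 and 42.2 on the DMSO arrays, lower on every BaP array. Aldh3a1, an aldehyde dehydrogenase and a further receptor target, had 101.1, 72.74 and 112.7 in BaP cells, against 23, 59.66 and 68.13 in DMSO cells, with an adjusted p of 0.13 and of 0.0497 with the replicate block.

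The promoters of 4 of the rising targets are shown because the receptor and Arnt bind the core GCGTG, read on either strand. They run from 250 bases before to 50 bases after the annotated start in RefSeq's GRCm38.p6 and were searched for that core, which stands in capitals (as CACGC where it lies on the opposite strand).
Cyp1a1, chr9:57697363-57697662, plus strand: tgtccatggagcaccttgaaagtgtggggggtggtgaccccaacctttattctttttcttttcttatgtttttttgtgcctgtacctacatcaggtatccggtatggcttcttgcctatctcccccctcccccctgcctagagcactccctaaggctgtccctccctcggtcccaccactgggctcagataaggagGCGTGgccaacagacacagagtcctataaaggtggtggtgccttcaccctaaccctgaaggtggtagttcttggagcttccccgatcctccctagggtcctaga
Cyp1b1, chr17:79715012-79715311, minus strand: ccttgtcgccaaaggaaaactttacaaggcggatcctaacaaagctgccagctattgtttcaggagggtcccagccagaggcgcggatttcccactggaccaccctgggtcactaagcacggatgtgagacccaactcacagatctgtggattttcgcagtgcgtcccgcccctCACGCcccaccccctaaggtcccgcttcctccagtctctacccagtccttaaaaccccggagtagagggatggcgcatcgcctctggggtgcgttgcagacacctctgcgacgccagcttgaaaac
Tiparp, chr3:65528197-65528496, plus strand: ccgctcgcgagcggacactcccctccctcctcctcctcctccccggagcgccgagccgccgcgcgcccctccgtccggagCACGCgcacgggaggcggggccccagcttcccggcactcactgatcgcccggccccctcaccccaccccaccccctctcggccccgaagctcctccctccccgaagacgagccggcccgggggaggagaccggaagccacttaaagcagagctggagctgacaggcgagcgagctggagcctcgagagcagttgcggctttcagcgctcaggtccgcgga
Nqo1, chr8:107403156-107403455, minus strand: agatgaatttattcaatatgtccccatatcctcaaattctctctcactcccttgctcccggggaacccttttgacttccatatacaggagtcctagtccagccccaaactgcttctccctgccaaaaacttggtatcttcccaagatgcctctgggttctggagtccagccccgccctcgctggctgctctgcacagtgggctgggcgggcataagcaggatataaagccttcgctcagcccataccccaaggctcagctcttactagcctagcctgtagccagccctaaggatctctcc
The Cyp1a1, Cyp1b1 and Tiparp windows each held 1 copy, which began at position -54, -76 and -170 relative to the start, and the Nqo1 window held 0. The core was common. It was found in 32.4% of all promoter windows in the table and in 48.8% of those of tested genes. Genes that rose had it in 50.9% of their windows and genes that fell in 50.4%. A match is a string of letters and not a measured binding site.

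Nqo1, a quinone reductase that both the Ah receptor and Nrf2 induce, showed the second largest rise. It stood at 2690, 2898 and 2696 in BaP cells, against 748.2, 791.8 and 718.7 in DMSO cells, or 3.61-fold higher (log2 difference 1.85 ± 0.116 SE, adjusted p = 3.4e-11). Nfe2l2, the gene of Nrf2 itself, read 3185, 3260 and 3519 in BaP cells, against 2283, 2153 and 2265 in DMSO cells, and rose 1.48-fold (adjusted p = 0.00199), although its second probe set differed by -0.19. Of 22 tested genes linked to Nrf2, 6 rose and 0 fell, with a median of 0.29, and 11 rose with the replicate block. Pgd, an enzyme of the pentose phosphate pathway that makes NADPH, was 6903, 7079 and 6737, against 5060, 4964 and 4959 in DMSO cells, and rose 1.38-fold (adjusted p = 5.45e-05). Gclc, the catalytic subunit for glutathione synthesis, rose 1.49-fold and Sqstm1 (the autophagy receptor p62) 1.23-fold. Srxn1 (sulfiredoxin) rose 1.32-fold, with 4 probe sets from -0.105 to 0.398, and Txnrd1 (thioredoxin reductase) 1.29-fold, with 3 from -0.163 to 0.365. Each of these 4 calls was lost in some leave-outs, and the list had 2 rises without BaP array 2 or DMSO array 2, 3 without BaP array 1 or DMSO array 1, and 4 without BaP array 3 or DMSO array 3. Hmox1, which breaks down heme and is a common marker of oxidative stress, was 1075, 1303 and 1963 in BaP cells, against 1049, 1001 and 1465 in DMSO cells. The groups overlapped, and the adjusted p was 0.936.

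Glutathione S-transferases, which couple glutathione to electrophiles such as BaP diol epoxides, rose in 6 of 17 tested members and fell in 0. The median over the 17 was 0.10. Mgst2, a microsomal member, rose most, with 1116, 1372 and 1298 in BaP cells, against 700.8, 670.9 and 792.8 in DMSO cells (1.73-fold, adjusted p = 0.00111). Gstm1 was 5958, 5741 and 5217, against 3866, 3527 and 3319 in DMSO cells (1.58-fold, adjusted p = 2.62e-05), and Mgst1 rose 1.39-fold (adjusted p = 0.00128). Those 3 kept their call in all 6 leave-outs, and the list had 3 rises without DMSO array 1. Gsta4, which handles the lipid aldehyde hydroxynonenal, lost its call without DMSO array 1 (adjusted p = 0.0541), and Gstm2 and Gstp1, at 1.19-fold and 1.16-fold, lost theirs in 5 and 6 of the 6 leave-outs. Gstp1 changed sign when arrays were centred on their medians (log2 difference -0.01). Ephx1, the microsomal epoxide hydrolase that turns the first BaP epoxide into a diol, was 5558, 5844 and 6078 in BaP cells, against 3372, 4018 and 3655 in DMSO cells. It rose 1.58-fold (adjusted p = 6.32e-05). It was 1 of 2 among 19 tested other enzymes of xenobiotic metabolism that rose, with Aox1, an aldehyde oxidase, as the other (1.93-fold, adjusted p = 0.00889, and 0.0666 without DMSO array 2). With the replicate block 7 of the 19 rose.

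Heme is the prosthetic group of the P450 enzymes. Of 11 tested enzymes of its synthesis and breakdown 3 rose and 0 fell, beside 1.17% of all genes that rose. Cpox, coproporphyrinogen oxidase, gave the third largest rise among all genes tested. On its brightest probe set it stood at 2330, 1986 and 1799 in BaP cells, against 712.9, 586.6 and 524.4 in DMSO cells, or 3.30-fold higher (log2 difference 1.72, adjusted p = 0.00138), and its 3 probe sets ranged from 0.76 to 1.72. Alas1, the first and rate-limiting enzyme of the pathway, rose 1.39-fold (adjusted p = 0.0128), and Blvrb, a biliverdin reductase, 1.51-fold (adjusted p = 0.0232). The second probe set of Alas1 differed by 0.00386. Only the Cpox call held without BaP array 1, DMSO array 1 or DMSO array 2, and without BaP array 3 the list kept 2 calls.

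**Figure D2:**
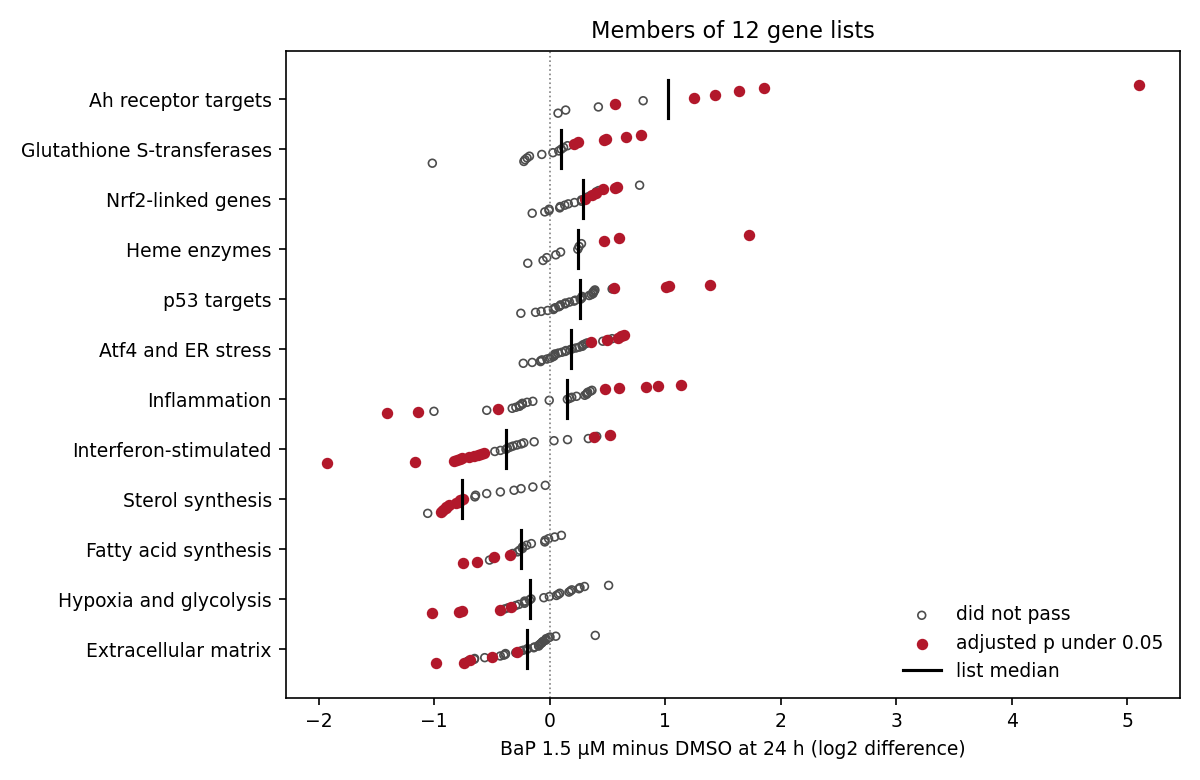
Log2 difference between BaP and DMSO cells at 24 h (horizontal axis) for the tested members of 12 gene lists (rows), with filled points for genes with an adjusted p under 0.05, open points for the others and a bar at each list's median. Ah receptor targets lie at a median of 1.03, sterol synthesis genes at -0.76 and interferon-stimulated genes at -0.38.

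Genes of the p53 response rose in 4 of 31 tested members and fell in 0, with a median of 0.27, beside 1.17% of all genes that rose. With the replicate block 10 of 31 rose, beside 5.79% of all genes. Cdkn1a, which encodes the cell cycle inhibitor p21, was 2340, 1693 and 1621 in BaP cells, against 1180, 792 and 825.2 in DMSO cells. Every BaP array was above every DMSO array, and the rise was 2.01-fold (log2 difference 1.01 ± 0.225 SE, adjusted p = 0.0128, and 1.79e-09 with the block). The Cdkn1a call was lost without BaP array 1 (log2 difference 0.84), DMSO array 2 (0.90) or DMSO array 3 (0.93), with adjusted p-values up to 0.122, and with the mean of its probe sets (0.67, adjusted p = 0.256). Gadd45a, a stress sensor of DNA damage, was 1230, 956.5 and 1315, against 535.9, 524.8 and 610 in DMSO cells (2.05-fold, adjusted p = 0.00037). Ier3, an early survival gene, rose 2.62-fold (adjusted p = 2.33e-06) and Psrc1, a spindle protein, 1.47-fold (adjusted p = 0.00138). Mdm2, the p53 ubiquitin ligase, had 26160, 26580 and 27550 in BaP cells, against 23460, 24950 and 26890 in DMSO cells, and did not pass (adjusted p = 0.508). Its log2 difference was 0.09 with an interval of -0.01 to 0.20. Ccng1, cyclin G1, had BaP arrays of 5947 to 6115 above DMSO arrays of 4472 to 4760, with an adjusted p of 0.0564 and of 0.000122 with the block.

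In the list of DNA repair genes 0 of 34 tested passed in limma, with 3 at an unadjusted p under 0.05, and in the list of replication genes 0 of 35, with 4 at an unadjusted p under 0.05. Over all genes 2.36% were called, so a count of 0 in lists of this size does not set them apart. With the replicate block 4 repair and 5 replication genes rose, beside 5.79% of all genes. Outside the lists, and chosen after their values were seen, Xrcc4, which acts in end joining, fell by a log2 difference of -0.65, and Rtel1, a helicase, and Clspn, the checkpoint adaptor claspin, rose by 0.48 and 0.40, with all 3 calls lost in at least 4 of the 6 leave-outs. In the list of damage signalling and checkpoint genes 1 of 25 rose, and 6 with the block. That one was Brca1, which acts in homologous recombination, at 2792, 2550 and 2370 in BaP cells, against 1871, 1860 and 1573 in DMSO cells (1.45-fold, adjusted p = 0.00289). Among 31 mitosis genes only Top2a, the topoisomerase that untangles chromosomes, rose, at 11690, 11810 and 11000, against 9243, 9025 and 8626 in DMSO cells (log2 difference 0.36, adjusted p = 0.00442). The median of the mitosis list was 0.03 and that of the replication list 0.10. Of 20 tested growth arrest genes 1 rose, Cdkn1a, and 2 fell. Cdkn2c, which encodes the Cdk4 and Cdk6 inhibitor p18, differed by -0.33 and Gas1 by -0.24, and both calls were lost in at least 4 of the 6 leave-outs.

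Of 34 tested genes of the Atf4 pathway and of stress in the endoplasmic reticulum, 5 rose and 0 fell, beside 1.17% of all genes that rose. With the replicate block 14 rose, beside 5.79% of all genes. Ddit3, the transcription factor Chop, was 2432, 2275 and 2306 in BaP cells, against 1641, 1622 and 1682 in DMSO cells (log2 difference 0.50 ± 0.101 SE, adjusted p = 0.00589). Trib3, a pseudokinase induced by Atf4, rose by 0.64, Nupr1, a small stress-induced nuclear protein, by 0.62, Vldlr, a lipoprotein receptor, by 0.59 and Shmt2, the mitochondrial serine hydroxymethyltransferase, by 0.36. The 4 probe sets of Shmt2 ranged from -0.00557 to 0.855. The number of rises in the list was 1 without BaP array 1 and 2 without DMSO array 2 or 3. It was 3 without BaP array 2 or DMSO array 1, and 5 without BaP array 3.

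Genes of cholesterol synthesis were lower across the pathway. All 18 tested genes of the pathway had a log2 difference below 0, with a median of -0.76. Of these 9 fell and 0 rose, and 15 fell with the replicate block. Hmgcs1, which makes the precursor HMG-CoA, was 3042, 3422 and 3007 in BaP cells, against 6110, 6925 and 4806 in DMSO cells. It was 1.86-fold lower (log2 difference -0.90 ± 0.149 SE, adjusted p = 0.000772). Nsdhl, a later enzyme that removes methyl groups from the sterol ring, had 1267, 1445 and 1443, against 2608, 2954 and 2462 in DMSO cells (log2 difference -0.94, adjusted p = 3.32e-05). Fdft1, squalene synthase, differed by -0.81 (adjusted p = 0.000385), and Sqle, squalene epoxidase, by -0.77 (adjusted p = 0.00201). Mvd, Idi1, Lss, Msmo1 and Dhcr7 also fell, by log2 differences of -0.92, -0.87, -0.75, -0.90 and -0.78, and lost their call in 2 to 5 of the 6 leave-outs. The number of falls was 4 without BaP array 2 or DMSO array 1 and 5 without DMSO array 2, and it was 7 to 9 without BaP array 1, BaP array 3 or DMSO array 3.

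Of 15 tested genes of sterol control, uptake and export 1 fell, and 2 with the replicate block. It was Stard4, a sterol carrier (log2 difference -0.67, adjusted p = 0.0257, and up to 0.2 in the leave-outs). The median of the list was 0.00. Insig1, which holds the sterol sensor in the endoplasmic reticulum and is itself a target of that pathway, was 783.4, 601.6 and 678.3 in BaP cells, against 952.5, 881.4 and 760.6 in DMSO cells, with overlap and an adjusted p of 0.456. It was lower in BaP cells within all 3 pairs of the same number, and its adjusted p with the block was 0.0501. Of 18 fatty acid synthesis genes 4 fell and 0 rose, beside 1.19% of all genes that fell. With the block 10 fell, beside 4.84% of all genes. Elovl6, an elongase of long-chain fatty acids, was 818.6, 762 and 913.7, against 1285, 1263 and 1317 in DMSO cells (log2 difference -0.63, adjusted p = 0.00434), though its 3 probe sets ranged from -0.74 to 0.23. Scd1 and Scd2, the desaturases of stearate, differed by -0.48 and -0.34, and Acsl3, an acyl-CoA synthetase, by -0.75. In the leave-outs 1 fall remained without BaP array 2, DMSO array 1 or DMSO array 2, 2 without BaP array 1 and 3 without BaP array 3 or DMSO array 3. The promoter of Hmgcs1 is shown because it held the sterol response motif TCACNCCAC, in capitals, which was present in 1.24% of all windows and in 1 of the 9 windows of sterol genes that fell.
Hmgcs1, chr13:119690101-119690400, plus strand: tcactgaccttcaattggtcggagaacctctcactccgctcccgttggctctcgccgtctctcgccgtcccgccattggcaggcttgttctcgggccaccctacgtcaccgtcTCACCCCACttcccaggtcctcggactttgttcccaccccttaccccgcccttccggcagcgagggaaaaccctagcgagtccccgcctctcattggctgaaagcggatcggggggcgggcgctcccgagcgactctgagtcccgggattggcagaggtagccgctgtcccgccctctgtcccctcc

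Interferon-stimulated genes fell in 11 of 27 tested members and rose in 2, with a median of -0.38. These genes are switched on by type I interferon and block viral replication. With the replicate block 16 fell and 4 rose. Ifit1, which binds foreign RNA, was 912.4, 731.2 and 776.7 in BaP cells, against 2173, 1711 and 1616 in DMSO cells, or 2.24-fold lower (log2 difference -1.16 ± 0.162 SE, adjusted p = 7.53e-05). Usp18, which removes the ubiquitin-like Isg15 and dampens the interferon receptor, was 1668, 1589 and 1833, against 2879, 2727 and 3054 in DMSO cells (log2 difference -0.76, adjusted p = 9.64e-06). Oasl2, of the oligoadenylate synthetase family, differed by -0.62 (adjusted p = 0.000477). Mx2, an antiviral GTPase, had the largest fall among all genes tested, with 98.06, 16.59 and 53.74 in BaP cells, against 252.1, 161 and 283.9 in DMSO cells (log2 difference -1.93, adjusted p = 0.0106). The BaP arrays of Mx2 differed widely, and its call was lost without BaP array 2 or DMSO array 3 (adjusted p up to 0.1). Ifit3, Rsad2, Oas1a, Oasl1, Irf7, Irf9 and Dhx58 fell by log2 differences of -0.57 to -0.83 and lost their call in 1 to 4 leave-outs. Between 4 and 11 of the list fell when 1 array was left out, 4 without BaP array 2, 6 without DMSO array 2 and 7 without DMSO array 3.

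The 2 members that rose were Irf1, a transcription factor that interferon gamma induces strongly, and Gbp2, a guanylate-binding protein. Gbp2 was 4162, 3804 and 3870 in BaP cells, against 2946, 3123 and 2980 in DMSO cells (log2 difference 0.38, adjusted p = 0.00138). Irf1 was 3985, 3298 and 2797, against 2505, 2310 and 2112 in DMSO cells (log2 difference 0.53, adjusted p = 0.0278, and up to 0.229 without 1 of BaP arrays 1 and 2 and DMSO arrays 2 and 3).

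Inflammation genes moved both ways, with 5 rises and 3 falls among 29 tested. Of 8 macrophage markers 5 were bright enough to test, Ptprc, Itgam and Tyrobp were not, and the summed intensity of the 8 was 591.2 to 692.8 in BaP cells, against 581 to 698.1 in DMSO cells. Ccl5, a chemokine that draws T cells, was 357, 314 and 386.4 in BaP cells, against 1035, 898.1 and 948.4 in DMSO cells. It was 2.65-fold lower (adjusted p = 1.41e-08). Ccl9, a chemokine for macrophages, was 693.4, 640.2 and 822.3, against 1565, 1426 and 1806 in DMSO cells (log2 difference -1.14, adjusted p = 0.000872). Cxcl5, which draws neutrophils, went the other way, with 4128, 3911 and 4547, against 2241, 2242 and 2573 in DMSO cells (log2 difference 0.83, adjusted p = 2.83e-06). Chil1, a chitinase-like secreted protein, Lif, a cytokine, Tnfaip3, an inhibitor of NF-kappa B signalling, and Ptx3, a pentraxin, rose by 1.14, 0.93, 0.60 and 0.48, and Vcam1, an adhesion molecule, differed by -0.44, with all 5 calls lost in some leave-outs. On its second probe set Ptx3 differed by -0.375. The inflammation list kept 1 rise without DMSO array 2, 2 without BaP array 1, and 3 or 4 without another array. With the block it had 9 rises and 5 falls. Ptgs2, the inducible cyclooxygenase that makes prostaglandins, was 1373, 1019 and 763.5 in BaP cells, against 402.4, 402.5 and 306.8 in DMSO cells, and rose 2.71-fold (adjusted p = 0.000772). Among 23 immediate early genes Fosl1, Fosl2, Ier3 and Klf2 rose and 0 fell, and only Ier3 kept its call without any 1 array.

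Extracellular matrix genes fell in 5 of 35 tested members and rose in 0, with a median of -0.20, beside 1.19% of all genes that fell. With the replicate block 12 fell, beside 4.84% of all genes. Tnc, the matrix glycoprotein tenascin C, was 656.5, 416.2 and 564 in BaP cells, against 1213, 890.7 and 1143 in DMSO cells (log2 difference -0.98, adjusted p = 0.00279). Thbs1, thrombospondin 1, was 3668, 3225 and 4338, against 6411, 5546 and 6755 in DMSO cells (log2 difference -0.74, adjusted p = 0.000895). Col5a2 and the small proteoglycan Ogn also fell, by -0.28 and -0.69. Lox, the collagen-crosslinking lysyl oxidase, differed by -0.50 on its brightest probe set, while its 3 probe sets ranged from -0.64 to 1.14, and their mean gave 0.00. The list had 3 falls without BaP array 1, DMSO array 2 or DMSO array 3. Outside the list, and chosen after their values were seen, Tnxb, which encodes tenascin X, and Loxl3, a lysyl oxidase, rose by 1.08 and 0.43, with both calls lost in at least 4 leave-outs. Adamts1, a secreted protease that cuts proteoglycans, was 5261, 4472 and 4514, against 9068, 8442 and 8567 in DMSO cells (log2 difference -0.87, adjusted p = 0.000171). Of 26 genes of hypoxia and glycolysis 5 fell and 0 rose, beside 1.19% of all genes that fell. With the block 12 fell and 2 rose, beside 4.84% and 5.79% of all genes. P4ha1, a collagen prolyl hydroxylase, was 997.9, 934.7 and 991.2, against 1373, 1247 and 1330 in DMSO cells (log2 difference -0.43, adjusted p = 0.00468). Ankrd37, Egln3, Pfkl and Bnip3 fell by -1.01, -0.76, -0.78 and -0.33. The 3 probe sets of Pfkl ranged from -0.784 to 0.109. The hypoxia list kept 1 fall without DMSO array 2, 2 without DMSO array 1, 3 without BaP arrays 2 or 3 or DMSO array 3 and 4 without BaP array 1. Igf1, insulin-like growth factor 1, had 77.18, 77.77 and 84.48 in BaP cells, against 162.5, 201.1 and 228 in DMSO cells, with no overlap but an adjusted p of 0.0686 (0.0225 with the block).

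Other genes among the 15 largest rises that passed without overlap were of mixed function. Gpc1, a glypican that carries heparan sulphate at the cell surface, was 3207, 2508 and 2223 in BaP cells, against 1114, 896.1 and 879 in DMSO cells (2.70-fold, adjusted p = 4.99e-05). Gsdmd, the pore-forming effector of pyroptosis, was 2807, 2407 and 2951, against 1123, 1092 and 1269 in DMSO cells (2.32-fold, adjusted p = 1.14e-05). Ncf4, Meig1, Dusp26, Jakmip3 and Fgf3 were dim, with 26.8 to 181.9 on the BaP arrays, against 2.13 to 91.5 on the DMSO arrays, and of these 5 only Meig1, needed in meiosis, kept its call in all leave-outs.

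Many genes that fell were long. The genomic span of a gene, the distance between its first and last annotated base in RefSeq's GRCm38.p6, was known for 12588 of the 12650 genes, and its median was 94 kb among genes that fell and 15.1 kb among genes that rose, against 22 kb over all genes tested. A span over 100 kb was found in 75 of the 151 genes that fell (49.7%) and in 10 of the 148 that rose (6.76%), against 12.1% of all genes tested. Among the 15 largest falls that passed without overlap 9 had a span over 200 kb, and among the 15 such rises 0. The share that fell climbed with span, from 0.624% of genes up to 10 kb and 0.692% of those of 10 to 50 kb to 7.61% at 200 to 400 kb and 19.8% over 400 kb, where 33 of 167 fell and 0 rose. The median log2 difference was 0.00 up to 10 kb, 0.01 at 10 to 50 kb, -0.06 at 100 to 200 kb, -0.20 at 200 to 400 kb and -0.26 over 400 kb.

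The long genes among the 15 largest falls are given here, and non-overlapping arrays were a condition of that list. Cdh13, which encodes T-cadherin and spans 1180 kb, was 714.5, 584.6 and 638.8 in BaP cells, against 1570, 1610 and 1595 in DMSO cells (log2 difference -1.28 ± 0.097 SE, adjusted p = 1.7e-09). Rbms3, an RNA-binding protein gene of 1060 kb, was 325.7, 298.4 and 308.9, against 1008, 878.6 and 768.8 in DMSO cells (log2 difference -1.46, adjusted p = 2.81e-09). Gpc6, a glypican gene of 1050 kb, was 358.9, 301.5 and 337.8, against 934.5, 844.5 and 904.7 in DMSO cells (log2 difference -1.39, adjusted p = 6.12e-09), with 4 of its 5 probe sets below 0. Tenm4, a teneurin of 740 kb, Ror1, a receptor for Wnt5a of 349 kb, and Pid1 of 304 kb fell by -1.21, -1.32 and -1.32 and kept their call in all leave-outs. Gtdc1, at 363 kb, fell by -1.49, but its 3 probe sets ranged from -1.49 to 0.64. Msi2 and Gpc3, of 379 and 342 kb, lost their call in some leave-outs. The 6 probe sets of Msi2 ranged from -1.2 to 0.205.

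The same pattern could be read array by array, without calling genes. The arrays are those that gave the called genes, so this reading is not separate support. On each array the median log2 level of the 548 genes over 200 kb was set against that of the 9293 genes up to 50 kb. The difference was -1.15, -1.18 and -1.11 on the BaP arrays, against -0.85, -0.76 and -0.87 on the DMSO arrays, so that long genes were lower relative to short ones on every BaP array. The mean difference was -1.15 ± 0.033 in BaP cells, against -0.83 ± 0.060 in DMSO cells (SD, n = 3 each), a shift of -0.32. Its two-sided exact permutation p was 0.1, the smallest that 3 against 3 arrays allow, so it could not fall under 0.05. MCA at 20 µM gave -0.999, -1.002 and -1.063, DAT at 700 µM -1.03, -1.07 and -1.17, and AAF at 10 µM -0.80, -0.78 and -0.86. The BaP arrays lay below all MCA arrays (shift -0.13, exact p = 0.1) and overlapped the DAT arrays (shift -0.06, exact p = 0.3). In the literature set BaP at 0.5 µM gave -0.91, -0.88 and -0.89, against -0.69, -0.69 and -0.69 in its own DMSO cells. Long genes are dimmer than short ones, and the difference between the medians of their log2 changes was -0.21 among dim genes, -0.26 among genes of middle level and -0.15 among bright genes, with the tested genes divided into 3 equal classes of level. The ratio of 3′ to 5′ actin probe sets, a measure of RNA integrity in the labelled sample, was 0.41, 0.48 and 0.32 on the BaP arrays, against 0.30, 0.35 and 0.21 on the DMSO arrays (log2 scale), while that of Gapdh was -0.30, -0.34 and -0.37 on the BaP arrays, against -0.32, -0.28 and -0.35 on the DMSO arrays. Within each pair of the same number in the IC20 set the actin ratio was higher with BaP than with DMSO. It was 0.38, 0.54 and 0.34 with MCA, 0.39, 0.45 and 0.30 with DAT and 0.40, 0.35 and 0.35 with AAF. In the literature set it was 0.30, 0.28 and 0.29 with BaP at 0.5 µM, against 0.27, 0.33 and 0.26 in DMSO cells, with overlap. Whether RNA integrity bears on the levels of long genes was not tested.

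**Figure D3:**
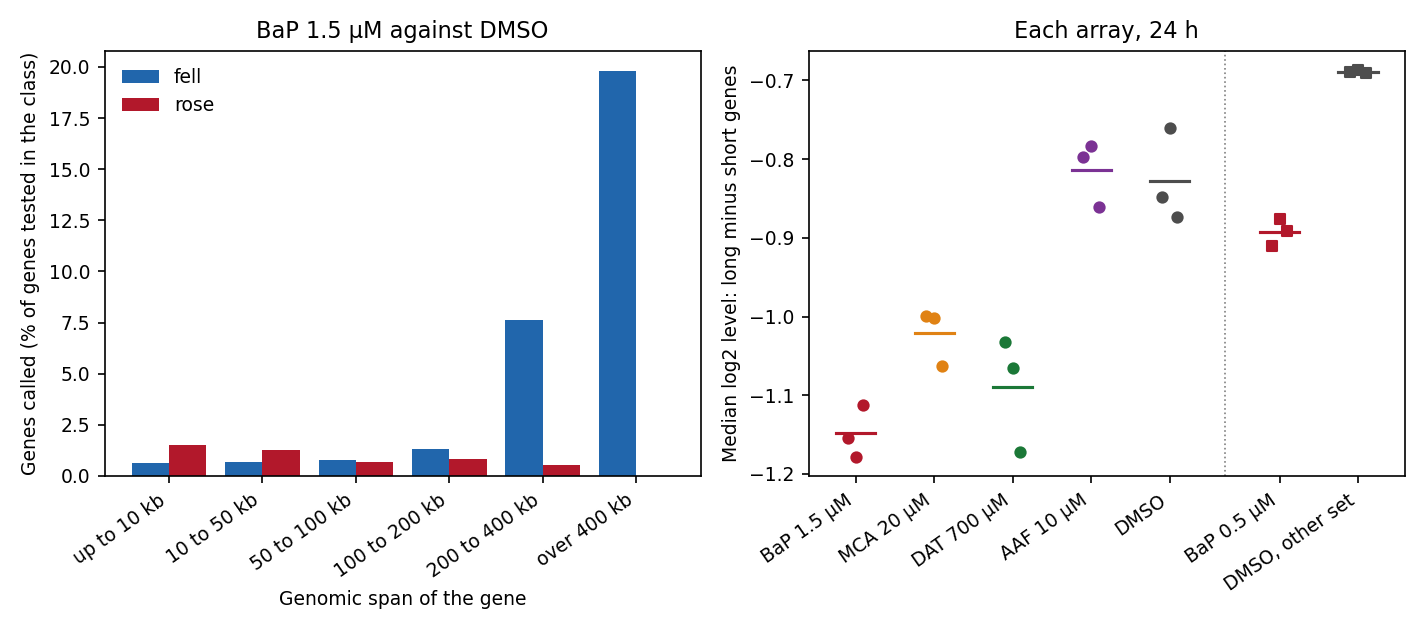
Left, the percentage of tested genes that fell (blue) or rose (red) in BaP cells against DMSO cells, by genomic span, reaching 19.8% fallen over 400 kb. Right, for each array at 24 h, the median log2 level of genes over 200 kb minus that of genes up to 50 kb, with group means as bars, circles for the IC20 set and squares for the literature set. BaP arrays at 1.5 µM lie at -1.18 to -1.11, against -0.87 to -0.76 for their DMSO arrays.

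BaP at 0.5 µM, measured on other arrays with other controls, changed 1188 genes (9.39% of those tested), with 571 rises (4.51%) and 617 falls (4.88%). The literature set had a smaller spread, with a median residual SD of 0.115 on the log2 scale, against 0.218 in the IC20 set, and the sets had been scaled apart, so counts and levels were not tested across them. Of the 299 genes called at 1.5 µM, 290 (97.0%) had the same sign at 0.5 µM, against 68.4% of all genes tested, and 216 were called at both concentrations, which is 72.2% of the 1.5 µM list and 18.2% of the 0.5 µM list. Of these, 215 moved the same way. Sizes were not compared between the concentrations, since the 299 genes had to pass in the set with the larger spread, and since the added 16 weighs more on the dimmer arrays of the literature set. Across all genes tested, which are not independent, the differences at the 2 concentrations correlated with a Pearson r of 0.535.

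Values at the 2 concentrations are given side by side for single genes and lists. For the reasons above, their sizes are not read as an effect of concentration. Cyp1a1 had a log2 difference of 5.10 at 1.5 µM and 5.21 at 0.5 µM, and Cyp1b1 1.43 and 1.73. Cpox had 1.72 at 1.5 µM and 0.87 at 0.5 µM, and Nqo1 1.85 and 1.55. Cdkn1a had 1.01 at 1.5 µM and 0.27 at 0.5 µM, where its adjusted p was 0.0533. Sterol synthesis genes had a median of -0.76 at 1.5 µM, with 9 of 18 fallen, and of -0.40 at 0.5 µM, with 13 fallen. Interferon-stimulated genes had a median of -0.38 at 1.5 µM, with 11 of 27 fallen, and of -0.74 at 0.5 µM, where 24 fell and 0 rose. Aldh3a1, which did not pass at 1.5 µM, had a log2 difference of 2.11 at 0.5 µM (adjusted p = 8.85e-10). Gbp2 was the 1 gene called in opposite directions, with 0.38 at 1.5 µM and -0.25 at 0.5 µM (adjusted p = 0.0313).

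**Figure D4:**
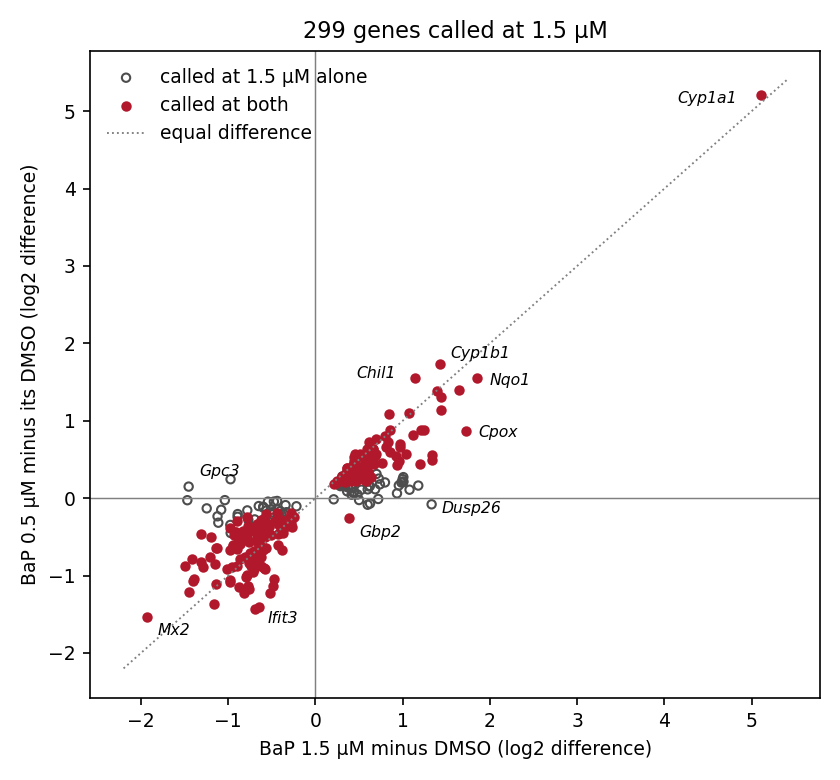
Log2 difference against DMSO cells at 24 h of the 299 genes called at 1.5 µM BaP (horizontal axis) and of the same genes at 0.5 µM BaP against the controls of that set (vertical axis), with filled points for the 216 called at both. Cyp1a1 lies at 5.10 and 5.21, and the filled points lie in the same direction on both axes except Gbp2.

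MCA is another polycyclic aromatic hydrocarbon and Ah receptor ligand. Its concentration was 20 µM, so the contrast sets IC20 treatments side by side and not equal doses. In the direct contrast of BaP with MCA arrays, which uses no control array, 10 of 12650 genes passed (0.0791%), with 6 higher (0.0474%) and 4 lower (0.0316%) in BaP cells, and 497 had an unadjusted p under 0.05 (3.93%). Genes of glutathione and NADPH metabolism were among the 6. Nqo1 was 2690, 2898 and 2696 in BaP cells, against 1587, 1712 and 1694 in MCA cells, a log2 difference of 0.72 ± 0.116 (SE) with an interval of 0.49 to 0.96 (adjusted p = 0.00505). Gsta4 was 5620, 5141 and 5593 in BaP cells, against 3472, 3445 and 3860 in MCA cells (log2 difference 0.60, adjusted p = 0.00943). Pgd was 6903, 7079 and 6737 in BaP cells, against 5198, 5298 and 5232 in MCA cells (log2 difference 0.40, adjusted p = 0.00505), and Gstm1 differed by 0.45 (adjusted p = 0.023). Ndrg4 and Selenop, which encodes a secreted selenium carrier, were higher by 0.53 and 0.36.

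The 4 genes lower in BaP than in MCA cells all had a span over 100 kb. They were Gpc6 (log2 difference -0.65), Cdh13 (-0.62), Rbms3 (-0.59) and Nrp2, a semaphorin receptor of 115 kb (-0.54). Cdh13 was 714.5, 584.6 and 638.8 in BaP cells, against 989.6, 955.9 and 1054 in MCA cells (adjusted p = 0.00505), and Rbms3 325.7, 298.4 and 308.9, against 509.9, 514.7 and 412.9 in MCA cells (adjusted p = 0.0242). Cyp1a1, Cyp1b1 and Tiparp did not pass in this contrast, with differences of 0.07 (interval -0.29 to 0.42), 0.12 (-0.05 to 0.28) and -0.04 (-0.23 to 0.14). Cpox did not pass either, at 0.68 (0.05 to 1.30). Against the shared DMSO arrays Cyp1a1 had a log2 difference of 5.10 with BaP and 5.04 with MCA, Tiparp 1.64 and 1.69, and the sterol synthesis genes medians of -0.76 and -0.75. The count of 10 was 64 with the replicate block, 4 in a fit of the 24 h arrays alone and 0 with arrays centred on their medians, where limma gave 362 genes at an unadjusted p under 0.05. Leaving out 1 array gave 0 without MCA array 1 (523 unadjusted), 5 without BaP array 1, 6 without BaP array 2 and 7 without BaP array 3, MCA array 2 or MCA array 3.

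**Figure D5:**
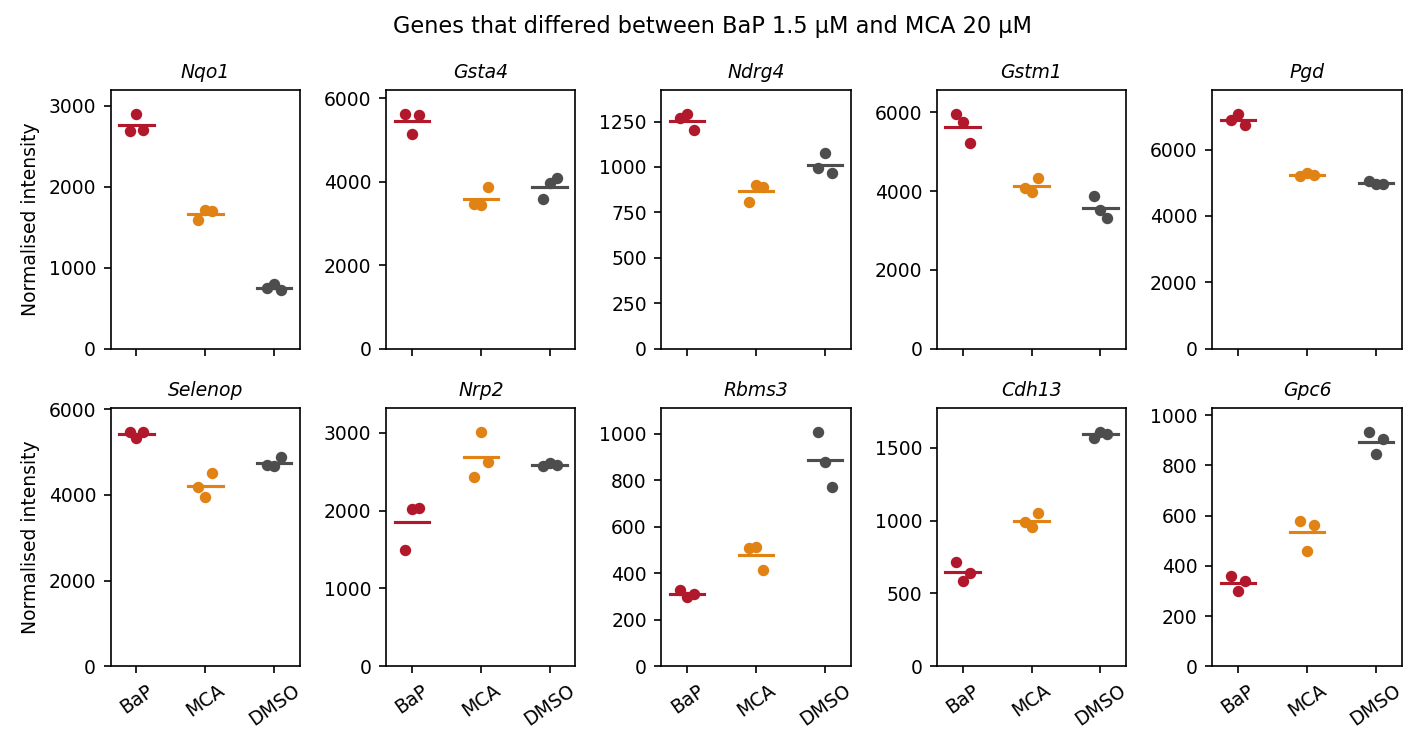
Normalised intensity on each BaP, MCA and DMSO array at 24 h of the 10 genes that differed between BaP at 1.5 µM and MCA at 20 µM, with group means as bars. In each panel the 3 BaP points lie beyond the 3 MCA points, above for Nqo1, Gsta4, Ndrg4, Gstm1, Pgd and Selenop and below for Nrp2, Rbms3, Cdh13 and Gpc6.

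DAT, an aromatic amine given at 700 µM, differed from BaP in more genes. In the direct contrast 383 passed (3.03%), 167 higher (1.32%) and 216 lower (1.71%) in BaP cells, and 1847 passed with the replicate block. In the list of interferon-stimulated genes 15 of 27 were lower in BaP than in DAT cells and 0 higher, with a median of -0.54, and in the inflammation list 6 of 29 were lower and 0 higher, with a median of -0.28, against -0.01 over all genes tested. Rsad2, the antiviral enzyme viperin, was 335, 302.4 and 297.6 in BaP cells, against 1151, 1183 and 1389 in DAT cells (log2 difference -1.94 ± 0.142 SE, adjusted p = 4.68e-09). Ccl5 was 357, 314 and 386.4 in BaP cells, against 965.3, 931.5 and 1129 in DAT cells (log2 difference -1.48, adjusted p = 1.37e-08). Ccl20, a chemokine for lymphocytes and dendritic cells, was 8.389, 10.96 and 9.171 in BaP cells, against 139, 86.52 and 166.1 in DAT cells, and Zbp1, a sensor of left-handed nucleic acid, differed by -1.42 (adjusted p = 0.0205). The other 4 of the 8 largest differences in this direction were in Gtsf1, Sox3, Slc16a6 and Acot11, at -1.76, -1.68, -1.64 and -1.47. Gadd45a and Nupr1, which rose with BaP, were lower in BaP than in DAT cells, both by a log2 difference of -1.10. Against the shared DMSO arrays the interferon list had 2 rises and 11 falls with BaP and 9 rises and 0 falls with DAT. With DAT 4.17% of all genes rose and 3.65% fell. Ah receptor targets rose with both, 6 of 10 with BaP (median 1.03) and 7 of 10 with DAT (median 1.07). Sterol synthesis genes fell with both, 9 of 18 with BaP (median -0.76) and 10 of 18 with DAT (median -0.74). In the direct contrast 1 receptor target was higher and 2 were lower in BaP than in DAT cells, and 0 sterol synthesis genes passed.

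The 8 genes that stood highest above DAT in BaP cells were all lower in DAT than in DMSO cells. Tcstv1 and Zfp352, known from the mouse embryo at the 2-cell stage, were among them. Tcstv1 was 275.2, 251 and 258 in BaP cells, against 6.913, 15.88 and 38.31 in DAT cells (log2 difference 3.02, adjusted p = 5.78e-08), and in DMSO cells it was 271.8, 287.1 and 312.8. Zfp352 differed by 2.18 (adjusted p = 2.19e-06) and BC080696 by 2.92 (adjusted p = 3.76e-06), and neither passed between BaP and DMSO cells. Aox1 was 341.9, 328.6 and 311.6 in BaP cells, against 93.13, 46.24 and 141 in DAT cells (log2 difference 1.75, adjusted p = 4.05e-06), the 1 gene of the 8 largest that itself rose with BaP against DMSO. The count of 383 was 232 to 255 when 1 array of the contrast was left out.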

How the data were processed

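Balb/c 3T3 RNA was measured on Affymetrix arrays of 1 colour with a biotin label, per the labels' protocols, and GCOS is named, without a version, in the submitters' processing notes. The authors deposited 1 linear intensity per probe set and array; how it was scaled is not given in the sources used here, but the trimmed mean was 500 on every array of the IC20 set and 152.9 to 187.56 in the literature set. Here, log2(intensity + 16) was quantile normalised within the 30 arrays of a set. Each gene was represented by its brightest probe set, and 12650 genes brighter than the median probe set on at least 3 arrays were fitted in limma 3.58.1 (R 4.3.3) with 10 group means, 20 residual degrees of freedom and a trended, two-sided moderated test. The script was tested on simulated data. The number of arrays limits the precision.

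Replicate numbers were taken to pair arrays in the block alone, and the main fit had no block. The reason was that same-numbered BaP and DMSO arrays deviated together (correlations 0.214 to 0.308), a pairing read from the data. Other pairs gave -0.202 to -0.0714. Deviations were taken from each group's mean, which pulls the other pairs below 0, so these values are no further evidence of pairing. Intervals cover 95%. Named genes were the 15 largest rises and falls with non-overlapping arrays, called members of the gene lists, a set always given, and the 8 largest differences each way in the direct contrasts. Members, lists and rules were chosen with earlier results of these data known. Alternatives were other normalisations, filters, pseudocounts, probe set rules, arrays in the fit, the block, and each array left out.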

Additional observations from a re-analysis of the deposited data

Results flagged for a closer look

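Probe sets with no gene in the annotation used here were outside the comparisons of genes. Of 4163 such probe sets bright enough to test, 21 passed between BaP and DMSO cells (0.504%), 7 higher and 14 lower, against 1.22% of all 28499 probe sets tested. The 2 largest of each direction among those whose BaP and DMSO arrays did not overlap are given as values. Probe set 1456650_at read 91.91, 312.9 and 68.32 in BaP cells, against 6.849, 20.56 and 4.33 in DMSO cells, a log2 difference of 2.49 with a limma adjusted p of 0.0445. Probe set 1442537_at differed by 1.36 (adjusted p = 0.0228), 1419495_at by -1.36 (adjusted p = 0.000717) and 1423555_a_at by -1.06 (adjusted p = 7.58e-07). The lack of overlap was a condition for naming these 4 probe sets and is not a result.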

How the results depend on the processing

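The count of 299 genes between BaP and DMSO cells became 90 with arrays centred on their medians, 76 in a fit of the 6 arrays alone, 816 in 1 fit of all 60 arrays and 1345 with the replicate block, and 129 to 218 with 1 array left out. The 10 genes between BaP and MCA cells became 0, 4 (24 h arrays alone), 68 (60 arrays) and 64 (block), and 0 to 7 with 1 array left out. The 383 genes between BaP and DAT cells became 125 (median centring), 1204 (60 arrays) and 1847 (block), and 232 to 255 with 1 array left out. Cdkn1a no longer passed with median centring (0.9578, adjusted p = 0.0928), the mean of its probe sets (0.6705, adjusted p = 0.256) or the 6 arrays alone (1.007, adjusted p = 0.0508), and its log2 difference was 0.8408 to 1.182 with 1 array left out. The Cyp1a1 difference was 5.01 to 5.19 with 1 array left out. Gstp1 changed sign with median centring (-0.008694) and Lox with the mean of its probe sets (0.000814). Of 108 named genes that passed, 66 lost the call with median centring, 60 in the 6 arrays alone and 38 with the mean of probe sets. The loss was 11 without quantile normalisation, 18 to 50 with 1 array left out, and 0 with the replicate block or in the 60-array fit. The 60-array fit pools the IC20 set with the literature set, whose median residual SD was smaller (0.115, against 0.218). Its higher counts and kept calls are therefore no separate support. The replicate block added 6 calls among 21 named genes that had not passed. The median log2 difference between BaP and DMSO cells of long genes minus that of short genes (-0.222) was -0.181 to -0.272 in the alternatives run. It is another measure than the shift of -0.32 in median levels per array. Centring on the median left the median log2 difference at -0.0814, against -0.00812. The causes were not tested. With 3 arrays a group and a median residual SD of 0.218, small changes and dim genes were the least resolved.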

Other observations

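Genes whose introns carry small nucleolar RNAs were looked at after their values had been seen, so no test is drawn from them. Of 15 such host genes tested (Gas5, Zfas1 and members of the Snhg family), 5 rose and 0 fell in BaP cells, beside 1.17% of all genes that rose, with a median log2 difference of 0.265. Zfas1 was 9439, 6030 and 7396 in BaP cells, against 3461, 3777 and 4128 in DMSO cells (limma adjusted p = 0.00844). Snhg8 was 7729, 7567 and 7371 in BaP cells, against 5666, 5876 and 5506 in DMSO cells, and Gas5, Snhg1 and Snhg3 were the others that rose. With the replicate block 6 rose, beside 5.79% of all genes. The Zfas1 call was lost without BaP array 1 (adjusted p = 0.0848), and that of Snhg3 without BaP array 1, BaP array 2 or DMSO array 2 (adjusted p up to 0.106). At 0.5 µM BaP these 5 genes did not pass, with log2 differences of 0.04 to 0.20 and limma adjusted p-values of 0.157 to 0.861. Of the 15 genes 1 was called at 0.5 µM (Snhg12), beside 9.39% of all genes, 1 with MCA (Gas5) and 1 with DAT (Snhg1).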
